A study of Mus musculus with 10 samples.

Results

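The genes *Gcg*, *Gast*, *Cck* and *Ttr* were followed through every library of the fetal mouse pancreas series. They were chosen by name, 4 of 27716 genes listed in all 8 libraries, and each was read in 57982 cells with 200 or more genes, of which 6320 fell in 6 endocrine classes. Single pancreatic cells had been captured in droplets and their mRNA counted by molecular identifiers (UMIs). Of the libraries of Swiss Webster embryos, 4 used the first version of the kit on all live cells (v1: E12.5, 2 batches at E14.5, E17.5), and by their titles those of E12.5 and E17.5 belong to batch 2. The other 3 used the second version on cells depleted of CD140a, a mesenchymal surface protein (v2: E12.5, E14.5, E17.5). The last (Fev-Cre) came from E14.5 pancreata of 1 pooled litter of *Fev-Cre; ROSA26mTmG* mice on a C57BL/6J background. There Cre is driven by the *Fev* promoter and turns a red membrane reporter (TdTomato) into a green one (eGFP), and GFP+ cells were supplemented with TdTomato+/GFP- cells. Pancreata were pooled in each library, so embryos could not be resolved, and age cannot be told apart from litter or dissociation. The libraries were therefore the replicates, and p-values cover only the spread between them.

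Libraries held 15671934 to 196793242 UMIs, the latter in v2 E17.5 with its 2 wells summed, and the median per barcode of a well was 3084 to 10252. Haemoglobin transcripts took 0.0128% of UMIs in Fev-Cre and 60.9% in v1 E17.5, where 2309 of 4635 barcodes had 200 or more genes. Doublets that mixed markers of different compartments, 1.58% to 10.0% of cells, were removed. The whole epithelium counted as a single compartment, so doublets of different epithelial or endocrine classes were not found and may remain. Libraries of the same kit shared 19 to 156 cell barcodes, at most 1.79% of either library. Classes were rebuilt by clustering without the 4 genes and named by fixed markers. They held 1936 alpha-like, 1648 beta-like, 1298 Ngn3+-like, 845 Fev+-like, 305 epsilon-like and 288 delta-like cells. Of 9 alpha markers, 7 or 8 were highest in the alpha-like class in each library with 20 or more such cells. All 9 Ngn3+ markers were highest in their own class, but only 3 to 6 of 8 Fev+ markers. The beta-like class of v2 E12.5 went against its name in part, with *Ins2*, an insulin gene, above background in 7 of its 36 cells. Of 4 endocrine clusters that took no name, 1 in v2 held 280 cells of v2 E17.5 (248.97 CPM of *Gcg*, CPM being UMIs per 1e6 UMIs of the cells summed), and the Fev+-like class of that library was left with 1 cell and entered no comparison there. Another, of 187 Fev-Cre cells led by *Gip* and *Fbp1*, had 7716 CPM of *Gcg*, 774 of *Gast*, 315 of *Cck* and 7717 of *Ttr*, and is in no class below.

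*Gcg* encodes proglucagon, the precursor that prohormone convertases cut into glucagon in alpha cells and into glucagon-like peptides in the gut. *Gast* and *Cck* encode gastrin and cholecystokinin, sister hormones that end in the same amidated residues. Gastrin drives acid secretion and in adults comes from the stomach, while cholecystokinin acts on the gall bladder and the exocrine pancreas. *Ttr* encodes transthyretin, the carrier of thyroxine and of retinol-binding protein, made in liver, choroid plexus and islets. Endocrine cells arise from ductal progenitors that switch on *Neurog3* (Ngn3+ cells). Most of them pass through a state marked by *Fev* and then take up a hormone, while the paper's tracing labelled only part of the epsilon cells. A fetal endocrine cell may carry peptides that adult islets lack.

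The stretches that encode the end of the active hormones are shown for *Gast* and *Cck* because reads of one gene could only be taken for the other if the 2 transcripts were alike. Each line gives 60 coding bases, 5′ to 3′ on the strand of the gene, with bases identical between both in capitals, and 15 (*Gast*) and 24 (*Cck*) coding bases follow before the stop codon. They lie in exon 3 of *Gast* (chr11:100336822-100336881, plus strand) and exon 3 of *Cck* (chr9:121490095-121490154, minus strand), in GRCm38 and GENCODE vM21.
Gast: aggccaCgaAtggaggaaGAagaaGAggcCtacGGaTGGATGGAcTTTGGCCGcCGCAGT
Cck: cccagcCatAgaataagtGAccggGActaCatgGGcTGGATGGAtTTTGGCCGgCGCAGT
Of the last 27 bases shown 24 are identical, against 7 of the 33 before them. Over the whole transcripts the longest run in common was 12 bases, so the counts of *Gast* and *Cck* could be kept apart. No other annotated gene overlapped any of the 4 genes.

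The promoters of the 3 peptide genes are shown because *Gcg* and *Gast* were highest in the same class and *Cck* in another. Each line gives the 150 bases before the RefSeq start, 5′ to 3′ on the strand of the gene in GRCm38.p6. *Gcg* (ENSMUSG00000000394) lies at chr2:62474530-62483653 on the minus strand, *Gast* (ENSMUSG00000017165) at chr11:100334407-100336997 on the plus strand and *Cck* (ENSMUSG00000032532) at chr9:121489824-121495694 on the minus strand. Capitals mark matches on either strand to 5 motifs. They are the TATA box as TATAAA with its reverse TTTATA, a second form as TATTTA with its reverse TAAATA, the E-box as CANNTG, the homeobox core as TAAT with its reverse ATTA, and the half-site of cAMP response elements as CGTCA with its reverse TGACG.
Gcg promoter, chr2:62483654-62483803: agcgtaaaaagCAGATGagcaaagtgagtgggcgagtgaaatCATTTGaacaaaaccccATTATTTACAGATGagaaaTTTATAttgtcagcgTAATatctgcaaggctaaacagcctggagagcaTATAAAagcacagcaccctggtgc
Gast promoter, chr11:100334257-100334406: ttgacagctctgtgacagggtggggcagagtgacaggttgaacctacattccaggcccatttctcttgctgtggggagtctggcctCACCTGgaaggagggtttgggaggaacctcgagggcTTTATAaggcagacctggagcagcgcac
Cck promoter, chr9:121495695-121495844: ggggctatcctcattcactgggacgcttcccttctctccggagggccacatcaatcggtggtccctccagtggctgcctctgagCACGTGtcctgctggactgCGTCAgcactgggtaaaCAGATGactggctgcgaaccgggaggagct
The *Gcg* promoter held 3 E-boxes, 2 homeobox cores, 1 TATTTA and 2 matches to the TATA box, 1 of them as TTTATA, with ATTA and TATTTA overlapping in 1 stretch. The *Gast* promoter held 1 E-box and 1 TTTATA, and that of *Cck* 2 E-boxes and 1 CGTCA. Of 32851 promoters of this length, 47.7% held an E-box, 37.8% a homeobox core, 13.3% the half-site, 7.57% TATAAA or TTTATA and 7.17% TATTTA or TAAATA.

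*Gcg* was the most confined of the 4 to the alpha-like class, which held 66.8% to 97.3% of its UMIs in each library. Levels are given as UMIs per 1e6 UMIs of a class (CPM), which for 3′ tags do not scale with transcript length. In alpha-like cells at E12.5 the *Gcg* level was 94292 CPM in v1 and 44700.5 in v2. At E14.5 it was 46008, 51964 and 35787 CPM in the v1 batches and v2, and 47701 in Fev-Cre, and at E17.5 it was 71024 and 83017 CPM in v1 and v2. The class thus put 3.58% to 9.43% of all its UMIs into this single gene at every age. In v1 E17.5, 5 of its 40 cells held 71.8% of the *Gcg* UMIs. Alpha-like cells were the class with the highest *Gcg* level in 8 of 8 libraries, at 59312 ± 20892 CPM (SD, n = 8 libraries). The next class in the order of mean log2 levels, acinar-like, was lower in 6 of 6 libraries with both, by 6.50 ± 1.85 on the log2 scale (SD). Below it no neighbours in the order were apart in every library. In acinar-like cells of v1 E17.5 all 166 *Gcg* UMIs lay in 3 of 40 cells. The 5 highest acinar-like cells held 66.2% in v1 E14.5 batch 1 and 53.2% in v2 E14.5. They held 33.0%, 48.3% and 25.9% in v2 E12.5, v2 E17.5 and Fev-Cre. In Fev-Cre the acinar-like level was 1391 CPM, against 1308 in mesenchymal-like cells.

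**Figure D1:**
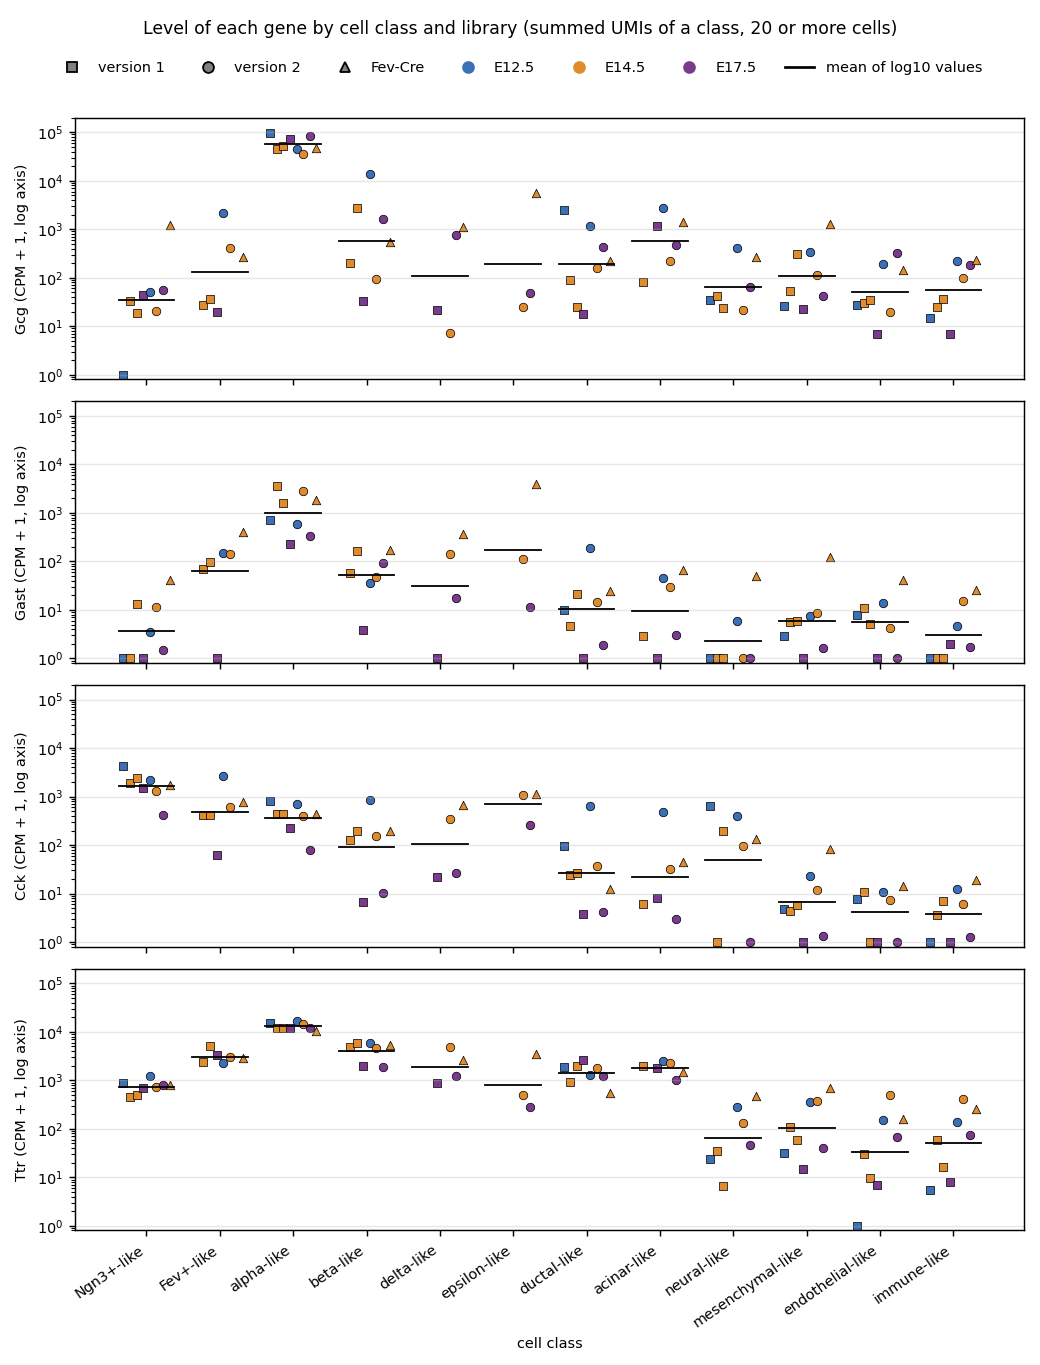
Level of *Gcg*, *Gast*, *Cck* and *Ttr* (log axis, CPM + 1) by cell class, 1 point per library with 20 or more cells of the class and a bar at the mean of the log values. *Gcg* and *Ttr* stand highest in alpha-like cells in all 8 libraries, *Gast* in 7, and *Cck* in Ngn3+-like cells in 7.

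Outside the alpha-like class *Gcg* levels were lower, sat in few cells in some classes and were spread thinly in Fev-Cre. In beta-like cells its level ran from 31.4 to 13637 CPM over 7 libraries, but in v1 E14.5 batch 2 a single cell held 98.6% of the UMIs. Without that cell the level there was 37.98 CPM in place of 2695. In v2 E12.5, with the highest level, 5 of 36 beta-like cells held 99.8% of the UMIs. Without its highest cell the level was 9007 CPM. Mesenchymal-like cells, which should lack the gene, carried 21.3 to 1308 CPM, most in Fev-Cre, and 1.68% to 40.0% of them had a UMI after thinning to 2000 UMIs per cell. In Fev-Cre that share was 40.0% of mesenchymal-like, 35.6% of ductal-like and 40.5% of Fev+-like cells. Without thinning the highest share of any library was 79.9%, 91.5% and 80.2% in these classes. For counts of single cells a background line was therefore set, after the data had been seen, at more UMIs of 2000 than 99% of the mesenchymal-like cells of the library and at least 2. For *Gcg* the line was 2 UMIs in 6 libraries, 3 in v2 E12.5 and 39 in Fev-Cre, where the count of cells is accordingly low.

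*Gast* was an alpha-like gene with a window in time. At E12.5 its level in alpha-like cells was 715 CPM in v1 and 589 in v2. At E14.5 it was 3615 and 1585 CPM in the v1 batches, 2860.0 in v2 and 1878 in Fev-Cre, and at E17.5 it was 225 CPM in v1 and 339.8 in v2. All 4 libraries of E14.5 were thus above all of E12.5, and those above all of E17.5. The class held 46.3% to 91.7% of the UMIs of the gene and was the highest in 7 of 8 libraries. Thinned to 2000 UMIs, 20.8% to 57.2% of alpha-like cells had a gastrin UMI, against 0.0% to 6.79% of mesenchymal-like cells, with median depths given by the thinning. Above the background line at E12.5 were 21.8% and 19.4% of alpha-like cells. The E14.5 libraries had 44.6%, 28.0%, 33.1% and 31.5%, and the E17.5 libraries 9.38% and 8.80%.

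The exception was Fev-Cre, in which epsilon-like cells, the source of ghrelin, led with 3896 CPM of *Gast* against 1878 in alpha-like cells. In the other libraries with 20 or more epsilon-like cells the level was 110.3 CPM (v2 E14.5, 58 cells) and 10.4 CPM (v2 E17.5, 41 cells). Of 150 epsilon-like cells in Fev-Cre, 66 were above the background line for *Gast*, and leaving out the highest cell still left 3237 CPM. The ghrelin gene *Ghrl*, itself a marker of the class, was above background in 63, and both in 19, or 12.7% against 18.5% for the product of the shares. In v2 E14.5, 2 of 58 epsilon-like cells were above background for *Gast* and in v2 E17.5 0 of 41. The line was 3 UMIs in Fev-Cre and 2 in both v2 libraries, and at 1 UMI of 2000 the shares were 60.0%, 5.17% and 4.88%. Strain and sort differ between these libraries and cannot be told apart. Of the 8 markers of the class 6 were highest in it in Fev-Cre against 8 in both v2 libraries, and its *Gcg* level there was 5671 CPM against 23.4 and 46.8, whose part in the *Gast* level was not tested.

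Single cells of other classes also carried *Gast* at a high level. In v2 E17.5, 1 beta-like cell held 1033 gastrin UMIs of its 17975 in all, 78.5% of the gene's UMIs in 641 beta-like cells. Without it the level of the class fell to 19.9 CPM from 92.4. This cell was singled out after its values were seen, and whether it was a doublet of endocrine cells was not tested. In v2 E14.5 the highest alpha-like cell had 297 gastrin UMIs of 4337.

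*Cck* had another place, at the start of the endocrine path. In Ngn3+-like cells its level was 4211 and 2169 CPM at E12.5 (v1, v2). It was 1945, 2451, 1309 and 1728 CPM at E14.5 (v1 batches, v2, Fev-Cre), and 1476 and 418 CPM at E17.5 (v1, v2). Ngn3+-like cells were the highest class for *Cck* in 7 of 8 libraries and Fev+-like cells in v2 E12.5, at 2677 CPM. They held 19.4% to 58.2% of the UMIs of the gene, and alpha-like cells 9.76% to 30.0%. Transcripts were spread over the class, with 26.7% to 87.0% of Ngn3+-like cells having a UMI of 2000 and no more than 17.9% of the UMIs in the highest cell. In mesenchymal-like cells 0.0% to 5.29% had one. In v2 E12.5, 17.8% of *Cck* UMIs lay in neural-like cells, where the peptide is a known transmitter.

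Down the order of classes, epsilon-like cells came next for *Cck*, below Ngn3+-like cells in 3 of 3 libraries by 0.51 ± 0.20 (log2, SD) and above Fev+-like cells in 2 of 2. Their level was 1079, 265.0 and 1153 CPM in v2 E14.5, v2 E17.5 and Fev-Cre. Fev+-like and alpha-like cells were not apart in every library. Delta-like cells were above beta-like cells in 4 of 4 libraries, and beta-like above neural-like cells in 6 of 6.

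*Ttr* (ENSMUSG00000061808, chr18:20664209-20674326, plus strand) was broad. Alpha-like cells were highest in 8 of 8 libraries at a nearly even level, from 10273 CPM in Fev-Cre to 17041 in v2 E12.5, with a mean of 13130 ± 2201 (SD, n = 8). Beta-like cells (1869 to 6004 CPM) were lower in 7 of 7 libraries, by 1.68 ± 0.71 on the log2 scale. Fev+-like cells had 2241 to 5181 CPM, acinar-like cells 993 to 2507, ductal-like cells 555 to 2659 and Ngn3+-like cells 443 to 1210. From beta-like down to Ngn3+-like cells no neighbours in the order were apart in every library, while Ngn3+-like cells were above mesenchymal-like cells (13.6 to 682 CPM) in 8 of 8. Because exocrine cells are many, acinar-like cells held up to 59.3% of all *Ttr* UMIs in a library and alpha-like cells 11.4% to 67.4%. In v2 E12.5, 38.2% lay in 4180 cells that took no name.

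*Ttr* and *Gast* are also genes of liver and stomach, so markers of neighbouring organs were read beside them. Of 8 hepatocyte markers the alpha-like class had a summed level of 6.82 to 600.0 CPM, with *Ahsg* at 0 in all libraries and *Alb* at most 23.0 CPM. The highest of them there were *Serpina1b* at up to 202 CPM, *Afp* at 138, *Apoa1* at 117 and *Fgb* at 91.3, against at most 133, 90.5, 3.30 and 6.03 CPM in ductal-like cells, and their part in the *Ttr* level was not tested. Of 8 gut markers it had 4.43 to 20.4 CPM, with *Cdx2* at most 2.56, and of 6 stomach markers 0.0 to 7.66 CPM, with *Sox2*, *Gkn1*, *Gkn2* and *Muc5ac* at 0. Ngn3+-like cells had up to 668 CPM of the stomach markers, all of it *Tff2*.

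Alpha-like and beta-like cells were compared over the 7 libraries with 20 or more cells of each, on UMI sums with library as a block. Of 9387 genes tested, 8.21% were called, 3.75% of all higher in alpha-like cells, with an adjusted p under 0.05 in the edgeR quasi-likelihood test and at least a 2-fold difference. All 4 members were called higher in alpha-like cells. *Gcg* differed by 6.23 ± 0.90 on the log2 scale (SE, adjusted p = 0.000247) and was higher in 7 of 7 libraries, without overlap between the classes. It was 5.62 without v1 E17.5 and 6.83 without v2 E12.5. *Gast* differed by 3.82 ± 0.50 (adjusted p = 9.37e-05), also in 7 of 7 and without overlap, and by 4.44 without v2 E17.5. *Ttr* differed by 1.48 ± 0.15 (adjusted p = 1.46e-05), again in 7 of 7. *Cck* differed least, by 1.30 ± 0.30 (adjusted p = 0.00742), and was lower in alpha-like cells in v2 E12.5, where the beta-like name is weak. The *Cck* call was lost with cells of 500 or more genes (adjusted p = 0.0605) and with coarser endocrine clusters (0.0931).

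**Figure D2:**
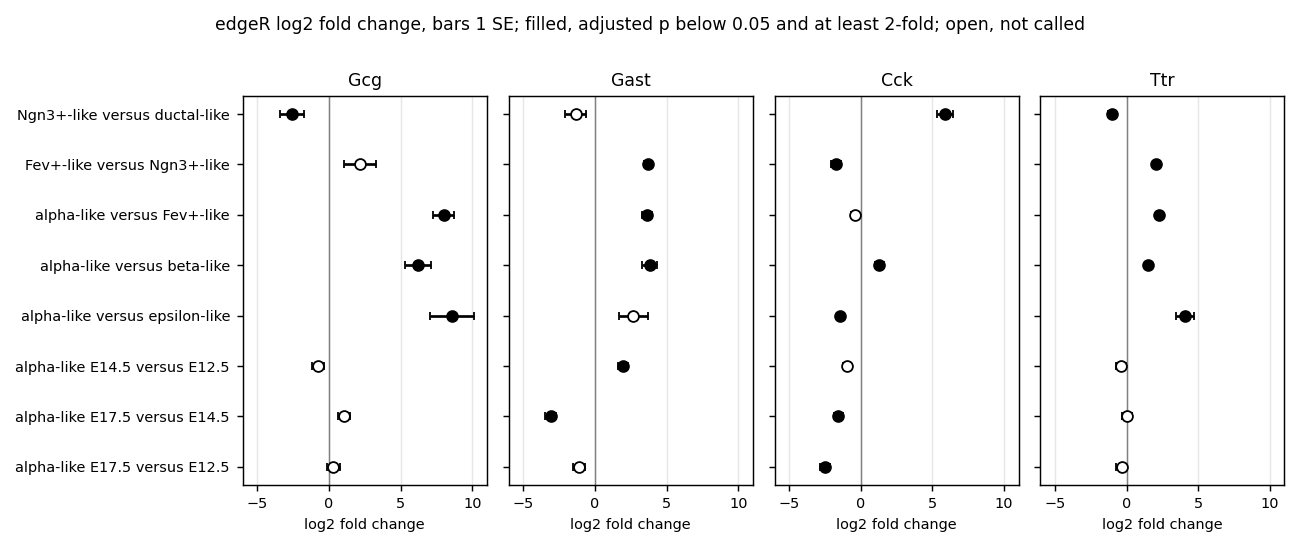
Log2 fold change (x axis) with its SE for each of the 4 genes in each comparison, filled where called. *Cck* rises by 5.86 from ductal-like to Ngn3+-like cells and lies below 0 in each stage comparison drawn, while *Gcg*, *Gast* and *Ttr* are all higher in alpha-like than in Fev+-like cells.

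Other hormones separated the same classes. Of 22 peptide hormone genes 15 were tested, with 5 called higher in alpha-like cells, 7 lower and a median of 0.84 against 0.01 over all genes. *Ghrl* (5.47), *Ppy* (2.33), *Pyy* (1.77), *Sct* (1.59) and *Cartpt* (1.42) were higher, on the log2 scale. *Ins1*, *Ins2*, *Iapp*, *Sst*, *Npy*, *Gip* and *Ucn3* were lower, of which the first 4 are class markers. Among 11 tested genes of prohormone maturation, *Pam*, which amidates peptide ends such as that of gastrin, was higher by 1.19, and so was *Tpst1*, a tyrosine sulfotransferase, by 1.09. *Pcsk1*, the convertase that makes glucagon-like peptides and insulin, was lower (-1.65), while *Pcsk2*, which releases glucagon, gave -0.06 and was not called. Of the regulators *Isl1* (1.05) and *Etv1* (3.43) were among those higher, and *Pdx1* (-2.39) and *Insm1* (-1.18) lower. The glucagon receptor gene *Gcgr* was lower (-2.38), 1 of 2 receptor genes tested. Of 6 tested partners of *Ttr*, the thyroid hormone transporter *Slc16a10* was higher (1.12), and *Rbp2*, which binds retinol, was among those lower (-1.24).

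Against epsilon-like cells, in 3 libraries, 2.81% of 9222 genes were called, and among them 3 of the 4 members. *Gcg* was higher in alpha-like cells by 8.58 ± 1.53 (adjusted p = 0.00997), and *Ttr* by 4.08 ± 0.65 (adjusted p = 0.00524), both in 3 of 3 libraries. Without v2 E17.5 they were 6.18 and 3.20, and without Fev-Cre 10.83 and 5.22. *Cck* was lower (-1.46 ± 0.18, adjusted p = 0.000784), also in 3 of 3. *Gast* gave 2.67 ± 1.01 (adjusted p = 0.191) and was not called. Without Fev-Cre, where epsilon-like cells were the higher class, *Gast* was called (4.84). That fit was left with 2 libraries of different ages, v2 E14.5 and v2 E17.5. Its p rests on little spread between libraries and is not given. Without v2 E14.5, with as few libraries, the calls of *Gcg* (adjusted p = 0.139) and *Ttr* (0.0891) were lost. Of 14 tested hormones *Ins1*, *Iapp* and *Gip* were higher and *Ghrl*, a marker of the class, lower. *Pcsk2* was higher in alpha-like cells by 3.54, with *Pcsk1n* (1.85) and *Scg5* (1.39), genes of proteins that bind the convertases.

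The path from ductal-like to Ngn3+-like cells, over 8 libraries, moved 28.8% of 10841 genes, 3 of the 4 members among them. *Cck* rose by 5.86 ± 0.54 (adjusted p = 1.05e-06), higher in 8 of 8 libraries, from 2.88 (2 UMIs, v1 E17.5) to 653 CPM in ductal-like cells. *Gcg* was called lower in Ngn3+-like cells (-2.59 ± 0.83, adjusted p = 0.0170). The levels, 0.0 to 1222 CPM in Ngn3+-like and 17.3 to 2470 in ductal-like cells, compare with 21.3 to 1308 in mesenchymal-like cells, and in v1 E12.5 1 ductal-like cell held 77.8% of the UMIs. The call was lost without v1 E12.5 (adjusted p = 0.0580), v2 E14.5 (0.0561) or v2 E17.5 (0.0576), the difference was -1.96 without v2 E12.5 and -3.42 without Fev-Cre, and with doublets kept the sign turned (2.20, adjusted p = 0.00302). *Gast* gave -1.33 ± 0.74 (adjusted p = 0.152) and turned likewise (1.57), and was called lower without Fev-Cre (-2.59, adjusted p = 0.0215). With 1 library left out at a time the *Gast* difference ran from -2.59 to -0.066. In v2 E12.5, 1 ductal-like cell held 49.8% of the *Gast* UMIs of its class. *Ttr* was called lower at just over 2-fold (-1.03 ± 0.25, adjusted p = 0.00328), in 7 of 8 libraries, and the difference fell under 2-fold without v1 E12.5 (-0.998), v1 E14.5 batch 2 (-0.89), v1 E17.5 (-0.84) or v2 E14.5 (-0.98).

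*Cck* did not rise alone, and over all genes tested 11.9% rose and 16.9% fell. Of 16 tested regulators 11 rose and none fell, *Neurod1* by 5.37, *Rfx6* by 4.34 and *Insm1* by 3.94 among them. Of 10 maturation genes 6 rose, among them *Pcsk1* (3.52), *Cpe* (2.96) and both tyrosine sulfotransferase genes *Tpst1* (1.74) and *Tpst2* (2.82), whose product modifies cholecystokinin. *Sct*, the secretin gene, rose by 3.13 and *Gal* by 2.85, 2 of 11 hormones tested, while 4 fell. Of the receptor genes *Gipr* (4.24) and *Gcgr* (3.42) rose, and *Cckar*, the receptor of cholecystokinin on acinar cells, fell by 1.86. Of 8 partners of *Ttr* 5 fell, *Rbp4* by 1.13 and *Slc16a10* by 2.88 among them, and *Crabp2* rose.

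From Ngn3+-like to Fev+-like cells, over 6 libraries, 13.8% of 6797 genes were called, and 3 members. *Gast* rose by 3.69 ± 0.27 (adjusted p = 2.76e-07), from at most 39.5 CPM to between 0.0 and 409, in 5 of 6 libraries. A single Fev+-like cell held 64.9% of the *Gast* UMIs in v1 E14.5 batch 2 and 54.5% in v2 E14.5, and without it the level was 34.0 CPM in place of 95.9 and 63.8 in place of 138.7. *Ttr* rose by 2.05 ± 0.23 (adjusted p = 7.37e-06) in 6 of 6. *Cck* fell (-1.69 ± 0.35, adjusted p = 0.0015) in 5 of 6, all but v2 E12.5. That fall was lost with finer endocrine clusters (-0.94, under 2-fold) and with cells of 500 or more genes (0.17, adjusted p = 0.800), and so was the rise of *Ttr* with the latter (0.60, adjusted p = 0.166). *Gcg* gave 2.16 ± 1.12 (adjusted p = 0.1504) and went up in 3 libraries and down in 3. Without Fev-Cre it was called (4.19, adjusted p = 0.000233). Of the *Gcg* UMIs of Fev+-like cells, 5 cells held 99.02% in v2 E12.5 and 96.7% in v2 E14.5. The 3 v1 levels of 18.7 to 36.3 CPM were each below that of mesenchymal-like cells of the same library (21.3 to 308 CPM). Over all genes 7.12% rose and 6.72% fell. Of 11 tested hormones 8 rose and none fell, and of 9 maturation genes 6 rose and none fell, *Pcsk2* by 3.67 and *Pam* by 3.48 among them. *Rbp4*, whose protein rides on transthyretin, rose by 3.81.

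From Fev+-like to alpha-like cells, over the same 6 libraries, 8.15% of 6930 genes were called and 4.75% were higher in alpha-like cells. *Gcg* was higher in alpha-like cells by 8.00 ± 0.71 (adjusted p = 2.65e-07), *Gast* by 3.66 ± 0.35 (6.13e-07) and *Ttr* by 2.23 ± 0.15 (1.12e-08), each in 6 of 6 libraries, and *Gcg* by 8.76 without v2 E12.5. *Cck* gave -0.42 ± 0.26 (adjusted p = 0.241), being higher in alpha-like cells in 3 libraries and lower in 3. *Rbp4* (2.09) and *Slc16a10* (2.59) were again higher with *Ttr*, and *Pcsk2* (1.34) with *Gcg*. Of 12 tested hormones 9 were higher, *Ghrl* (5.68), *Ppy* (3.54) and *Pyy* (3.38) the most, and *Tac1*, the gene of substance P, was lower (-2.33). These comparisons share the Fev+-like and Ngn3+-like sums.

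Across stages, *Cck* was lower at E17.5 than at the earliest age tested in each of 4 classes, with 1 step in between that was not called. In Fev+-like cells, 1 of the 4, each of these ages was a single library, and the kits differed. In alpha-like cells of 7 Swiss Webster libraries, with the kit as a term, E17.5 was compared with E12.5, and 4.78% of 6071 genes were called. *Cck* fell by 2.50 on the log2 scale (-2.50 ± 0.34, adjusted p = 0.000108), from 799 and 688 CPM at E12.5 through 443, 446 and 403 at E14.5 to 225 and 76.6 at E17.5. The values of the 3 ages did not overlap. The difference was -3.12 without v1 E17.5 and -1.78 without v2 E17.5 (adjusted p = 0.0381), and was called in both. *Gcg* (0.32 ± 0.44, adjusted p = 0.787), *Ttr* (-0.35 ± 0.36, 0.695) and *Gast* (-1.10 ± 0.39, 0.122) were not called. The sign of *Gcg* turned without v2 E12.5 (-0.19) or v2 E17.5 (-0.21), and *Gast* was called without either v1 batch of E14.5 (adjusted p = 0.0150 and 0.0351). With the v1 batch as a block, a fit added after seeing the data, *Gast* was called lower at E17.5 (-1.16, adjusted p = 0.0190) and 511 of 7140 genes were called in place of 290 of 6071.

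**Figure D3:**
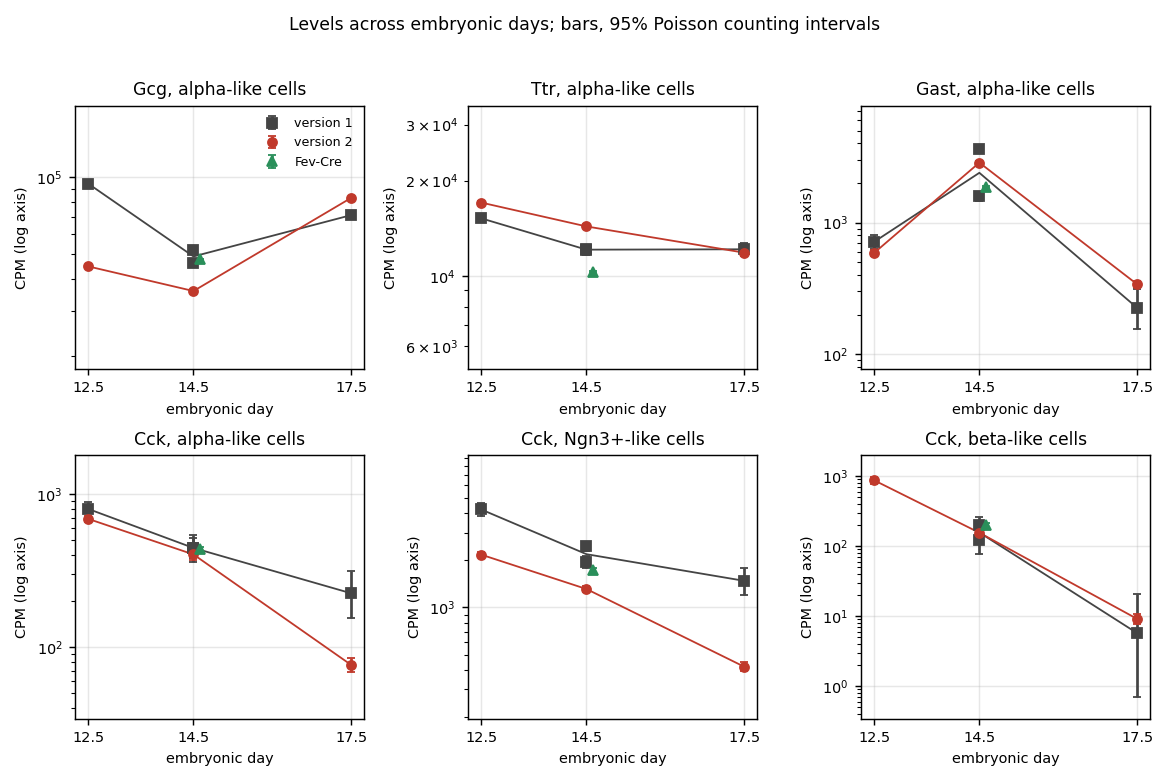
Level (log axis, CPM) against embryonic day, with *Gcg*, *Ttr*, *Gast* and *Cck* in alpha-like cells and *Cck* in Ngn3+-like and beta-like cells, 1 point per library with its 95% Poisson counting interval and a line through the geometric means of each kit. *Gast* in alpha-like cells is 589 to 715 CPM at E12.5, 1585 to 3615 at E14.5 and 225 to 339.8 at E17.5, and within each kit *Cck* is lower at each later age in all 3 classes.

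Other pairs of stages and other classes were compared after the data had been seen, with the same design. From E12.5 to E14.5, where 3.38% of genes were called in alpha-like cells, *Gast* rose by 1.97 ± 0.36 (adjusted p = 0.00285), and without v2 E12.5 this was lost (adjusted p = 0.0639). *Cck* gave -0.94 ± 0.28 over that interval and was not called (adjusted p = 0.0723). From E14.5 to E17.5 0.791% were called, or 48 genes, against 9 without v2 E14.5 and 168 without v1 E14.5 batch 1. *Gast* fell (-3.07 ± 0.39, adjusted p = 0.000525) and so did *Cck* (-1.56 ± 0.32, 0.0195). Without v1 E17.5 the fall of *Cck* was -2.24. It was lost without v2 E14.5 (adjusted p = 0.367) or v2 E17.5 (0.779). Because *Gast* went up and then down, E17.5 and E12.5 differed less than either did from E14.5.

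Ngn3+-like cells showed the decline of *Cck* too. Their E17.5 level was lower than at E12.5 (-1.95 ± 0.37, adjusted p = 0.0057), where 4.12% of 5686 genes were called, and this was lost without v2 E12.5 (adjusted p = 0.160) or v2 E17.5 (0.375). In the same cells *Sct* fell by 3.40 and *Sox11* by 5.75, while *Ins1* rose by 8.86, *Ppy* by 7.74 and *Ins2* by 6.56. Both insulin genes are markers of the beta-like class, and no background level of them was read beside these rises. *Gcg* and *Ttr* were not called there, and *Gast* was too low to be tested. In beta-like cells, with 1.71% of 6072 genes called between E14.5 and E17.5, *Cck* fell the most of the 4 (-3.45 ± 0.36, adjusted p = 1.62e-05), from 124, 197 and 155 CPM to 9.13 in v2 E17.5. In v1 E17.5 there were 2 UMIs (5.72 CPM, 95% Poisson interval 0.692 to 20.6), under the floor of 3 counts (8.57 CPM). The difference was -4.44 without v2 E14.5 and -4.40 without v2 E17.5. *Ttr* gave -0.81 ± 0.42 (adjusted p = 0.490), and *Gcg* and *Gast* were not called.

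In Fev+-like cells 5 libraries left 1 residual degree of freedom, and 1.16% of 6548 genes were called between E12.5 and E17.5. E12.5 was held by v2 E12.5 alone and E17.5 by v1 E17.5 alone. Their difference thus passes through E14.5 and the kit term, without a replicate at either age. *Cck* went from 2677 CPM in v2 E12.5 to 618 in v2 E14.5, and from 416 and 417 in the v1 batches of E14.5 to 60.9 in v1 E17.5. Its fitted difference was -4.83 and was called. *Gast* had 0 UMIs in v1 E17.5, which allows up to 14.0 CPM (3 counts, counting error only), against 70.3 and 95.9 CPM in v1 E14.5 and 150.2 in v2 E12.5. It was called, but a fitted fold there depends on the count added to 0 and is no bound. Both calls were lost with Fev-Cre in the fit (adjusted p = 0.882 for *Gast*, 0.104 for *Cck*).

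Among the hormones of alpha-like cells, *Gast* and *Cck* were not alone in passing. Between E12.5 and E17.5, where 4.78% of all genes tested were called, 4 of 12 tested hormones fell, *Gip* by 5.87, *Cartpt* by 4.71, *Sct* by 3.51 and *Gal* by 3.21. *Ppy*, *Ghrl*, *Ins1* and *Iapp* rose, *Ins1* by 3.38, and no background level was read beside these rises. Between E14.5 and E17.5, with 0.791% of all genes called, when *Gast* fell, *Gip* (-5.76), *Gal* (-2.63) and *Cartpt* (-1.69) fell and *Sst* rose. None of 12 tested regulators passed between E12.5 and E17.5, a share close to that of all genes, with *Pax6* at 0.79 (adjusted p = 0.141). *Pcsk2* rose by 1.38 (adjusted p = 0.0170), and of the partners of *Ttr*, *Slc16a10* rose by 1.17.

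Single alpha-like cells carried the peptides in every combination. Of the alpha-like cells of E12.5, 90.9% and 81.4% were above background for *Gcg*. The E14.5 libraries had 63.1%, 48.0%, 53.9% and 56.6%, and the E17.5 libraries 53.1% and 80.4% (n = 55, 279, 65, 75, 245, 761, 32 and 409 cells in the same order). The lines for *Gcg*, *Gast* and *Cck* were 39, 3 and 4 UMIs of 2000 in Fev-Cre. Elsewhere they were 2 each, but 3 for *Gcg* in v2 E12.5, so shares of Fev-Cre stand at other cut-offs. Cells above the line for all of *Gcg*, *Gast* and *Cck* made up 5.45% to 7.69% in the 5 Swiss Webster libraries of E12.5 and E14.5. They were 2.37% in Fev-Cre and 0.489% in v2 E17.5. In v1 E17.5 they were 0 of 32, which allows up to 9.38% as 3 counts, with an exact 95% interval to 10.9%. The exact 95% interval was 0.0593% to 1.76% in v2 E17.5 and 3.59% to 9.58% in v2 E12.5. These cover the counting of cells in 1 library each and are no test between ages.

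The make-up of the class is given by age, as shares of cells in single libraries that were not tested between ages. *Gcg* with *Cck* and no *Gast* was found in 23.6% and 17.2% of cells at E12.5, but in 0.788% to 6.15% at E14.5 and 6.25% and 2.44% at E17.5. *Gast* without *Gcg* was found in 1.82% and 4.30% at E12.5, in 9.33% to 15.4% at E14.5, and in 6.25% and 0.733% at E17.5. The alpha-like cells of E14.5 thus included gastrin cells below the line for proglucagon in all 4 libraries. In Fev-Cre, with 0.788% and 11.4% in these groups, the *Gcg* line was 39 UMIs, so cells with fewer counted as without *Gcg*. Only 16.4% of its alpha-like cells had 0 *Gcg* UMIs of 2000. *Gcg* alone made up 69.9% in v2 E17.5, against 25.3% to 49.1% elsewhere. None of the 3 passed in 3.64% and 7.89% at E12.5 and in 18.3% to 37.5% later. These cells were named by other genes. *Ttr* was above its own line in 51.8% of the alpha-like cells of Fev-Cre, 75.9% in v2 E14.5 and over 90% elsewhere. That line was 17 UMIs of 2000 in Fev-Cre, 8 in v2 E14.5, 6 in v2 E12.5 and 2 or 3 in the others. The share of alpha-like cells with 0 *Ttr* UMIs of 2000 was 0.0% in Fev-Cre and 2.86% in v2 E14.5.

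**Figure D4:**
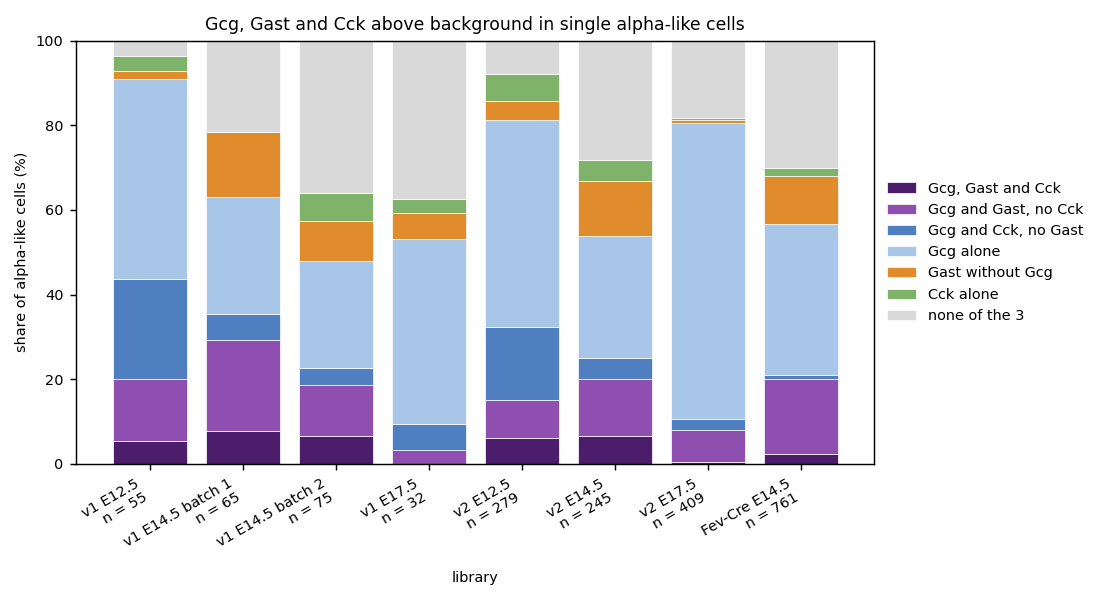
Share of alpha-like cells (percent, stacked to 100) in each library by which of *Gcg*, *Gast* and *Cck* lay above background. *Gcg* with *Cck* is largest at E12.5 (17.2% and 23.6%), *Gast* without *Gcg* at E14.5 (9.33% to 15.4%) and *Gcg* alone at v2 E17.5 (69.9%). The lines of Fev-Cre, at 39, 3 and 4 UMIs of 2000 for *Gcg*, *Gast* and *Cck*, are higher than those of the other libraries.

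Co-detection in single alpha-like cells was set beside the product of the separate shares. *Gcg* and *Gast* were both above background in 29.2% and 18.7% of alpha-like cells in the v1 batches of E14.5, in 15.1% in v2 E12.5, 8.07% in v2 E17.5 and 20.1% in Fev-Cre. The product of their separate shares was 28.1%, 13.4%, 15.7%, 7.08% and 17.9% in the same order. In v1 E12.5 both were above in 11 of 55 cells, in v2 E14.5 in 49 of 245 and in v1 E17.5 in 1 of 32, with products of 19.8%, 17.8% and 4.98%. The pair was thus above its product in 6 of 8 libraries, all but v2 E12.5 and v1 E17.5. *Gast* and *Cck* were also found together more often than the product in 6 of 8 libraries, for example in 15.4% against 9.61% in v1 E14.5 batch 1 and 3.29% against 1.86% in Fev-Cre. In v1 E12.5 (5.45% against 7.14%) and v1 E17.5 they were not. The difference from the product was tested for neither pair. Doublets of endocrine cells were not removed and would count here as single cells.

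**Figure D5:**
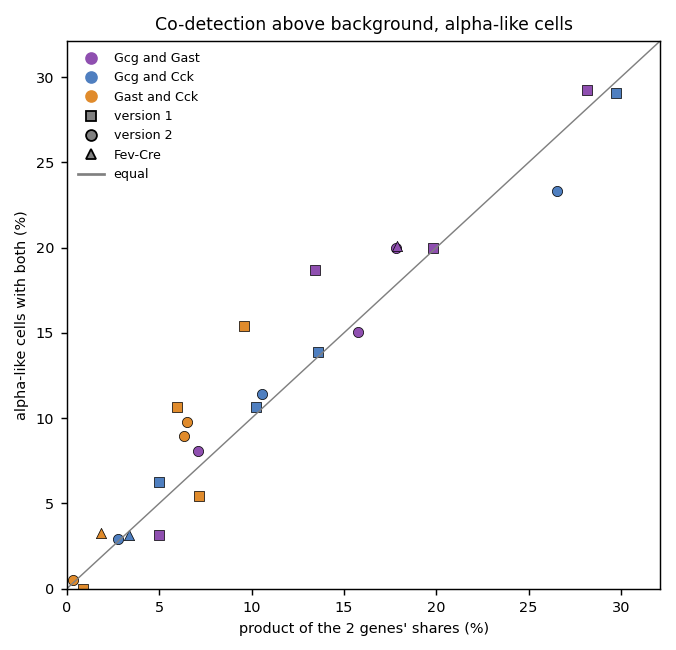
Observed share of alpha-like cells above background for both genes of a pair (y axis, percent) against the product of the separate shares (x axis, percent), 1 point per library, with the line of equality. *Gast* with *Cck* lies above the line in 6 of 8 libraries, and so does *Gcg* with *Gast*.

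Levels within alpha-like cells were compared by rank after thinning. Spearman's rho of *Gcg* and *Ttr* was positive in 8 of 8 libraries, from 0.20 in v1 E14.5 batch 2 to 0.56 in v2 E12.5. That of *Gcg* and *Gast* ran from -0.17 to 0.18 and changed sign between libraries. These are descriptions over 32 to 761 cells of 1 suspension each, in which all genes share the fixed total of 2000 UMIs. The median alpha-like cell at E12.5 had 186 (v1) and 85 (v2) *Gcg* UMIs of 2000. At E14.5 it had 20, 1, 5 and 60, and at E17.5 2 (v1) and 150 (v2). The 95th percentile was 378 (v1) and 182 (v2) at E12.5, 237 to 377 at E14.5, and 573 (v1) and 372 (v2) at E17.5.

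Pairs of the members with other genes were also counted in single cells, and none was tested. In Ngn3+-like cells *Cck* and *Neurog3* were above background together in 51.1% of v2 E12.5 cells, against a product of 52.5%, and in 43.2% in v2 E14.5. *Cck* and *Fev* met in 43.4% of Fev+-like cells in v2 E12.5 and in 13.8% in v2 E14.5. These classes take their names from *Neurog3* and *Fev*, so such pairs add little to the share of *Cck* alone. *Gast* with *Fev* was rarer, in 9 of 393 Fev+-like cells of Fev-Cre and 0 of 159 in v2 E14.5, where only 4 were above the line for *Gast*. *Ghrl* and *Gcg* were together in 27.6% of alpha-like cells in v2 E12.5, which is every one of the 77 with *Ghrl*, and in 21.3% in v2 E17.5. Of all alpha-like cells, 81.4% and 80.4% were above the line for *Gcg* in the same order. *Ins2* and *Gcg* were above background together in at most 5.02% of alpha-like and 2.38% of beta-like cells in the libraries.

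The eGFP reporter of Fev-Cre was counted from 1 UMI up, with no background line, so a UMI does not show that a given cell had passed through *Fev* expression. By class, eGFP UMIs were found in 95.7% of 761 alpha-like cells, 94.1% of 393 Fev+-like, 94.2% of 465 beta-like, 84.0% of 150 epsilon-like, 13.1% of 237 Ngn3+-like, 11.3% of 1065 acinar-like, 9.80% of 3122 mesenchymal-like and 5.17% of 658 ductal-like cells. The sort enriched for GFP, so these are not shares of the tissue. Among alpha-like cells the share was 97.1% with *Gast* above background and 95.01% without, 97.8% with *Cck* and 95.5% without, and 95.4% with *Gcg* and 96.1% without. These are shares of cells in 1 library, and no difference between them was tested. Among Ngn3+-like cells 17.05% with *Cck* and 10.7% without had eGFP, with intervals of 9.87% to 26.6% and 6.26% to 16.9%. Of 66 epsilon-like cells with *Gast* 83.3% had eGFP, against 84.5% of the 84 without.

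The reporter was also read in the mesenchymal-like cells that set the background lines. Of the 31 above the line of 39 UMIs for *Gcg* 30 had eGFP, against 8.93% of the other 3091, and of the 30 above that for *Gast* 29, against 8.96% of the other 3092. The origin of these cells was not tested.

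The genes closest in pattern to each member were ranked by Pearson's r of log2(CPM + 1) with library means removed, over 88 sums of class and library and 8717 genes. For *Gcg* they were *Irx1* (0.85), *Gast* (0.79), *Fgb* (0.78), *Ctxn2* (0.77) and *Irx2* (0.76). For *Gast* they were *Gpr119* (0.89), *Irx2* (0.86), *Ctxn2* (0.85), *Tmem27* (0.85) and *Irx1* (0.85). *Irx1*, *Irx2* and *Tmem27* are markers that named the alpha-like class. For *Cck* they were *Igfbpl1* (0.94), a marker of Ngn3+ cells, *Gdap1l1* (0.91), *Fbxo44* (0.90), *Celf3* (0.90) and *Rem2* (0.90). For *Ttr* they were *Kif12* (0.91), *2610528J11Rik* (0.91), *Smim22* (0.91), *Ambp* (0.90) and *Rab25* (0.89), none of them an alpha marker. *Cck* and *Gcg* were the least alike of the members, at 0.34. Sums of a class share their cells and depth, and no p is given.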

How the data were processed

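The authors deposited, for every gene and barcode of each 10x Chromium library, raw UMI counts. Per the submitters' processing notes, Cell Ranger 1.1 (v1) and 2.1 (v2, Fev-Cre) and the mm10 build were used. For Fev-Cre the alignment with reporter sequences was read, and that without them, the same library, was not used. The 2 technical wells of v2 E17.5 were summed. Staining was not analysed here.

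Cells with 200 or more genes were kept. The v1, v2 and Fev-Cre cells were clustered apart (leidenalg 0.10.2 under Python 3.11.15, scikit-learn 1.9.0), with depth and library regressed out, on 2000 variable genes, 20 principal components and 20 neighbours. Resolution was 1 for all cells, 1.5 for epithelium and 1 for endocrine cells, with the 4 genes and all listed genes that are not markers held out. An epithelial or endocrine cluster took the name of highest marker score where at least 3 markers were 1.5-fold above other cells and found in 10% of its cells. Among names scoring 85% of the best or more, the one with most markers among the leading genes was taken, and leading genes of another name left a cluster unnamed. Cells carrying marker genes of 2 incompatible compartments, each at 30% of its typical share or above, were dropped as doublets. Doublets within the epithelium were not dropped. These thresholds were set with clusters in view, and the members and lists were chosen with earlier results of these data known. Named were the 4 genes and tested genes of the lists that are needed to describe a count, and some list genes are not reported here.

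Levels are UMI sums per class and library in CPM, used where a class had at least 20 cells. Sums were compared with edgeR 4.0.16 (quasi-likelihood, TMM, filterByExpr, R 4.3.3), with library as a block between classes and kit as a term between stages, and p-values were adjusted by Benjamini-Hochberg over all genes tested. SEs are the log2 fold change divided by the root of F. The blocking rests on a shared suspension: deviations of the classes of a library correlated at 0.195 to 0.809, those between libraries at most 0.418. Alternatives included DESeq2 1.42.0. The fit was tested on simulated data. Shares of cells use 2000 UMIs drawn per cell, leaving out shallower cells, with exact binomial 95% intervals. Intervals cover counting error only. Promoters are from RefSeq (GRCm38.p6) and gene models from GENCODE vM21 (GRCm38), not the annotation of the counts.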

Additional observations from a re-analysis of the deposited data

Results flagged for a closer look

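Library groups in which every sample of 1 moved one way and every sample of the other the opposite way were picked out, leaving out samples where neither side was above the floor of 3 counts. None of these differences was tested. No stage of a kit had 4 or more libraries, and libraries of 1 kit, which differ in age, were not screened for single outliers.

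*Gast* between alpha-like and epsilon-like cells was 4.79 (log2) in v2 and -1.05 in Fev-Cre, a difference of 5.85. *Cck* between alpha-like and Fev+-like cells was 0.69 in v1, -1.29 in v2 and -0.85 in Fev-Cre, differences of 1.97 and 1.54. *Gcg* between Fev+-like and Ngn3+-like cells was 4.91 in v2 and -2.19 in Fev-Cre, a difference of 7.09. In v2 E14.5 the highest Fev+-like cell held 67.1% of the *Gcg* UMIs of its class, and in Fev-Cre 1 Ngn3+-like cell held 58.3%.

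Between Ngn3+-like and ductal-like cells Fev-Cre stood apart for 3 genes. *Gcg* was 2.47 there and -3.52 in v2 (5.99 apart). *Gast* was 0.70 there, -1.46 in v1 (2.16 apart) and -2.16 in v2 (2.87 apart). The v1 value rests on 2 of 4 libraries, both of E14.5, since in the other 2 neither class was above the floor of 3 counts. In Fev-Cre the *Gast* levels were 39.5 CPM in Ngn3+-like and 23.9 in ductal-like cells, both below the 122 in mesenchymal-like cells. The 95% Poisson intervals of the classes for *Gast* overlapped in both v1 libraries of E14.5, v2 E14.5 and v2 E17.5. They did not overlap in v2 E12.5 or Fev-Cre. *Ttr* was 0.54 in Fev-Cre, -1.53 in v1 (2.06 apart) and -0.69 in v2 (1.23 apart). Between E17.5 and E12.5 in alpha-like cells *Gcg* was 0.89 in v2 and -0.41 in v1 (1.30 apart), each from 1 library per age.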

How the results depend on the processing

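The comparisons of classes block on library, since 1 suspension supplies all classes of it. With no replicate block, the pairing is ignored and genes called fell to 329 (alpha-like versus beta-like), 5 (alpha-like versus epsilon-like), 1882 (Ngn3+-like versus ductal-like), 438 (Fev+-like versus Ngn3+-like) and 253 (alpha-like versus Fev+-like). Without it *Cck* was not called between alpha-like and beta-like (0.72) or Fev+-like and Ngn3+-like cells (-1.12), nor were *Gcg* (5.06), *Cck* (-1.41) and *Ttr* (3.25) between alpha-like and epsilon-like cells. Among stages the only shared number is the v1 batch, of which batch 1 holds E14.5 alone. As a replicate block, added after seeing the data, it gave 511 genes between E12.5 and E17.5 in alpha-like cells with *Gast* called (-1.16), 361 and 170 from E12.5 to E14.5 and on to E17.5, 384 in Ngn3+-like and 256 in beta-like cells. No call of *Gcg*, *Cck* or *Ttr* and no other call of *Gast* changed among those recomputed, *Cck* in each comparison, *Gast* in alpha-like cells and *Gcg* and *Ttr* in alpha-like cells from E12.5 to E17.5. Fev+-like cells left no residual degrees of freedom.

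Without a filter on low counts 1255 genes were called between alpha-like and beta-like, 523 between alpha-like and epsilon-like, 1699 between Fev+-like and Ngn3+-like, 1067 between alpha-like and Fev+-like cells and 455 between the ages of alpha-like cells, and *Gast* was called between alpha-like and epsilon-like cells (2.70). With classes of at least 10 cells 519 genes were called in that comparison, and *Gast* too (3.48). A split of the counts, 50% to cluster on and 50% to test, gave 356, 70 and 310 genes for alpha-like against beta-like, epsilon-like and Fev+-like cells. In it *Gcg* (5.90) and *Ttr* (2.88) were not called against epsilon-like cells, and *Cck* turned sign against Fev+-like cells (0.0049).

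Coarser endocrine clusters gave 445 genes between alpha-like and beta-like cells. They lost *Cck* there (1.22), took *Ttr* between Ngn3+-like and ductal-like cells under 2-fold (-0.87), and turned *Gcg* between Fev+-like and Ngn3+-like (-1.16) and *Cck* between alpha-like and Fev+-like cells (0.56). Finer ones gave 1469 genes between Fev+-like and Ngn3+-like cells, lost *Cck* there (-0.94) and *Ttr* between Ngn3+-like and ductal-like cells (-0.81), and called *Cck* between alpha-like and Fev+-like cells (-1.12). Cells of 500 or more genes gave 471 genes between alpha-like and beta-like cells and 15 between the ages of Fev+-like cells. They lost *Cck* between alpha-like and beta-like (1.31), and *Ttr* between Ngn3+-like and ductal-like (-0.23) and between Fev+-like and Ngn3+-like cells (0.60), turned *Cck* in the last (0.17), and called it between alpha-like and Fev+-like cells (-1.33). With doublets kept, *Gcg* (2.20) and *Gast* (1.57) turned between Ngn3+-like and ductal-like cells, *Gcg* between Fev+-like and Ngn3+-like cells lay at -0.0051, and *Ttr* between Ngn3+-like and ductal-like cells at -0.50. The cause of these changes was not tested.

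Fitted folds of *Gast* in Fev+-like cells, which had 0 UMIs in v1 E17.5, depend on the prior count and are no bounds. With DESeq2 185 genes were called between the ages of alpha-like and 4 between those of Fev+-like cells, where *Gast* was not called (-6.68). With Fev-Cre in the fit the latter count was 2, without *Gast* (-8.01) and *Cck* (-4.67). With no kit term 58 and 0 genes were called, and in Fev+-like cells *Gast* (-9.03) and *Cck* (-5.65) were lost. So were *Gast* (1.94) and then *Gast* (-3.01) and *Cck* (-1.46) in the added comparisons of alpha-like cells from E12.5 to E14.5 and on to E17.5, and *Cck* in those of Ngn3+-like (-1.83) and beta-like cells (-3.39).

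Leaving out 1 library at a time gave 386 to 910 genes between alpha-like and beta-like, 76 to 868 between alpha-like and epsilon-like cells and 109 to 582 between E17.5 and E12.5 in alpha-like cells. It gave 62 to 386 genes from E12.5 to E14.5 and 9 to 168 on to E17.5 in alpha-like cells, 38 to 448 in Ngn3+-like and 43 to 257 in beta-like cells, each of which moved by over 1.5 times. Against epsilon-like cells *Gcg* ran from 6.18 to 10.83, *Gast* from 1.15 to 4.84 and *Ttr* from 3.20 to 5.22, and *Ttr* between Ngn3+-like and ductal-like cells from -1.24 to -0.84. Between E17.5 and E12.5 in alpha-like cells *Gcg* ran from -0.21 to 0.81 and *Gast* from -1.51 to -0.80. *Gast* from E12.5 to E14.5 ran from 1.66 to 2.41, *Cck* from E14.5 to E17.5 from -2.24 to -0.88, and *Cck* in Ngn3+-like cells from -2.46 to -1.51. *Cck* ran from -3.12 to -1.78 in alpha-like cells from E12.5 to E17.5 and from -4.44 to -3.23 in beta-like cells, and *Gcg* from 5.62 to 6.83 against beta-like and 7.45 to 8.76 against Fev+-like cells, all of them called.

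The mean share of alpha-like cells with *Gast* was 57.5% with all UMIs, 25.7% at 2 or more UMIs of 2000 and 24.6% above background, and with *Cck* 55.7%, 20.4% and 18.3%. *Ttr* gave 97.1% at 1000 UMIs per cell, 97.3% at 2 or more UMIs and 87.7% above background. *Gcg* with *Gast* gave 47.6%, 18.2% and 16.8%, *Gcg* with *Cck* 44.8% (all UMIs) and 12.6% (above background), and *Gast* with *Cck* 35.9% and 6.75%.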
